A study of Mus musculus with 90 samples.

Results

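The G1/S and DNA replication genes are a list of 39 mouse genes that drive a cell out of G1, license replication origins, copy DNA or supply its building blocks. Members were taken by gene symbol. Of the 39, 37 had a probe on the array and 36 entered the fit, among 12143 features made of 10192 named genes and 1951 probes without a gene name. No probe was listed for the licensing factor Cdt1 or for E2f2, a transcription factor of the E2F family. The probe of Pcna, the sliding clamp of DNA polymerases, stood at exactly 0 on 47.8% of the arrays, which was read as missing, and was left out of the fit.

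The cells were RAW 264.7, an established mouse macrophage line that divides in culture. The combinations were LPS+IFG, with lipopolysaccharide from bacterial cell walls at 100 ng/ml and the cytokine interferon-gamma at 5 nM, and LPS+2MA, with lipopolysaccharide at 100 ng/ml and the ATP analogue 2-methyl-thio-ATP at 500 µM. The single treatments were LPS at 100 ng/ml together with 100 pM of lipid binding protein, IFG at 5 nM and 2MA at 500 µM. Each treatment ran for 1, 2 and 4 h and was set against untreated cells kept in media for the same time. Lipid binding protein is named for LPS alone and not for the combinations. All groups come from 1 cell line. The labels give 3 numbered sets per condition without saying whether they were separate cultures. A p-value here therefore reflects the spread between such sets alone, pooled over all conditions, and that spread may be technical. The labels also do not say whether treatments shared untreated RNA.

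Treated and untreated RNA were hybridised together on custom Agilent arrays with Cy3 and Cy5. The 90 arrays make 45 replicates, each the mean of 2 arrays with the dyes exchanged, and 3 replicates in each of 15 conditions. Every value below is a log2 ratio of treated over untreated RNA, or a difference of such ratios where stated, so that 1 unit is a 2-fold difference. The mean is given ± SD over 3 replicates. Genes with an adjusted p under 0.05 in limma's moderated test, by the Benjamini-Hochberg method over all 12143 features, were called changed. Which channel is on top of the ratio is not in the labels. Cy5 over Cy3 is likely, because 4 of 4 measured genes known to respond to LPS and 5 of 5 known to respond to IFG then lay above 0 at 4 h, such as Tnf at 3.11 under LPS and Irf1 at 3.86 under IFG. Ratios hold no levels, so the macrophage identity could not be checked by them. The 5 of 7 macrophage markers in the fit had mean ratios between -1.29 and 0.94 at 4 h. Of them only Csf1r was past the test and 2-fold, at -1.29 with LPS+IFG and -1.08 with LPS+2MA. The highest was Adgre1 at 0.94 with LPS, short of 2-fold. Markers of fibroblasts, T cells and B cells (10 genes in the fit) lay between -0.15 and 0.31 with none past the test and 2-fold.

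A cell leaves G1 when D-type and E-type cyclins with their kinases inactivate the retinoblastoma protein, which frees E2F transcription factors to raise the genes of S phase. Origins are licensed in G1 by the origin recognition complex, CDC6 and CDT1, which load the MCM helicase, and geminin holds CDT1 back after licensing. The fork then needs polymerases, clamp, ligase and a supply of deoxynucleotides. Macrophages exposed to LPS or interferon-gamma are known to slow or stop dividing.

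Promoters of 33 of the 39 genes were in the RefSeq table (GRCm38.p6, 250 bases before to 50 after the start of the gene). An E2F-type motif spelled TTTCCCGC, TTTGGCGC, TTTCGCGC or TTTGCCGC was sought on both strands, with overlapping matches counted. It stood in 12 of the 33 member genes (36.4%), against 2.6% of 27025 genes with a promoter in the table. The CCAAT motif, also read on both strands, stood in 20 of 33 (60.6%) and in 41.1% of all genes. Among members measured under LPS at 4 h, the E2F motif lay in 1 of 4 genes with a promoter that fell at least 2-fold (Cdc6), in 5 of 14 that fell by less (Mcm5, Mcm6, Mcm7, Cdk2 and Lig1), in 4 of 11 that did not pass the test (Mcm3, Pola1, Rfc3 and Orc1) and in 0 of 1 that rose. A match is a description of the letters in this window and not of a bound site. The promoters of 5 genes are shown because they stand for these classes. Cdc6 and Mcm6 fell and hold the motif, and Rfc3 holds it and did not pass the test in any condition. Tk1 fell with no match, and Mcm10 rose with no match inside the window. The Mcm10 window ends in tttggcg, the start of TTTGGCGC, so a match across its edge cannot be seen. The same holds for Chek1, which is not shown and did not pass with LPS at 4 h. Its window ends in gcgggaa, the start of GCGGGAAA, which is TTTCCCGC on the other strand. Each of the 5 promoters is written 5′ to 3′ on the strand of its gene, with matches to the E2F-type motif in capitals. Cdc6 lies at chr11:98907901-98908200 on the plus strand, and the other 4 lie on the minus strand, Mcm6 at chr1:128359656-128359955, Rfc3 at chr5:151651159-151651458, Tk1 at chr11:117825965-117826264 and Mcm10 at chr2:5012742-5013041.
Cdc6: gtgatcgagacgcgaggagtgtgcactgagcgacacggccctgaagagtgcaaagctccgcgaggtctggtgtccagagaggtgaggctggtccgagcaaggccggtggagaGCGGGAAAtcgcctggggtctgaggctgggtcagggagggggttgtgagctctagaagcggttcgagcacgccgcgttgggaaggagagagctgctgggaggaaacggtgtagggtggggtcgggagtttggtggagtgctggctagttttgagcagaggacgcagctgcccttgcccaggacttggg
Mcm6: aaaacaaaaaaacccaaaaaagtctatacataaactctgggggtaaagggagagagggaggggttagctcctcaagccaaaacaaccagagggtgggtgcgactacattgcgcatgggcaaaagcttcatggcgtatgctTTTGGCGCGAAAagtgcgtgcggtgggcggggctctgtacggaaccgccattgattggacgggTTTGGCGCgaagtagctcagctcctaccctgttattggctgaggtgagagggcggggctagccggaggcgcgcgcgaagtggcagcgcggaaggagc
Rfc3: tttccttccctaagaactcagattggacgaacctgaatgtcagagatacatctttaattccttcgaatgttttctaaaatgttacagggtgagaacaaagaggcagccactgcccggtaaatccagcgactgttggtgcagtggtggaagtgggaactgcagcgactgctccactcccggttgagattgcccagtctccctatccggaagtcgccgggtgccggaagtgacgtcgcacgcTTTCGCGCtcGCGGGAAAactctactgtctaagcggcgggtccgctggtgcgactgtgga
Tk1: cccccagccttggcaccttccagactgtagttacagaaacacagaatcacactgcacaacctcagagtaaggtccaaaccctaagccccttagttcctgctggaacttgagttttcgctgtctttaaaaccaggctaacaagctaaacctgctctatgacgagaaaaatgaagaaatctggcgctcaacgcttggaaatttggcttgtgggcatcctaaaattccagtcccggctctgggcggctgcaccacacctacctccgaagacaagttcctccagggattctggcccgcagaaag
Mcm10: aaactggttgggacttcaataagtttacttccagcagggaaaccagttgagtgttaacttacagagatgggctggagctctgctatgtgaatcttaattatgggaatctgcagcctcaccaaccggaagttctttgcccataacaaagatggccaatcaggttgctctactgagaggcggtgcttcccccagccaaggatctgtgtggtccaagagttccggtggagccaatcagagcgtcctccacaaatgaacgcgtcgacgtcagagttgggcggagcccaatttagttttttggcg

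At 4 h most of the list was lower in every treatment that held LPS, fewer members were lower with IFG, and none passed the test with 2MA. With LPS+IFG, 26 of 36 members were lower and 2 higher, where 17.7% of all features were lower and 14.5% higher. With LPS+2MA, 26 were lower and 2 higher, against 17.4% and 14.2% of all features. With LPS, 22 were lower and 2 higher, against 14.8% and 12.1%. With IFG, 14 were lower and 0 higher, against 5.49% and 6.12%. Lower genes thus made up a larger share of the list than of all features in these 4 treatments, and higher genes a smaller share. With IFG 1 member was higher at an unadjusted p under 0.05, as were 1251 of all 12143 features. The median ratio over the 36 members was -0.56 with LPS+IFG, -0.52 with LPS+2MA, -0.46 with LPS and -0.30 with IFG, whereas the median over all features was between -0.013 and 0.0042 in these comparisons. In bulk RNA, fewer cells in S phase and less RNA of these genes per cell cannot be told apart. The IFG count was 8 when the fit held the IFG replicates alone.

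With 2MA at 4 h, 0 members passed limma's test in either direction, against 0.544% of all features lower and 1.25% higher. The median was -0.16, 32 of 36 members had a mean below 0, and 10 were lower and 0 higher at an unadjusted p under 0.05. Of all 12143 features 6498 had a mean below 0, and 650 were lower and 609 higher at that threshold. The number of members called lower ran between 0 and 6 over the alternatives. It was 6 where only arrays with Cy5-labelled treated RNA were used. It was 2 where only those with Cy3-labelled treated RNA were, and 1 (Tk1) without 2MA replicate 3. With the set number as a replicate block 1 member passed, Tk1 at -0.33 (adjusted p = 0.0472, against 0.0620 without the block), and Tk1 also passed with the spread of arrays made equal (-0.36, 0.0102).

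**Figure D1:**
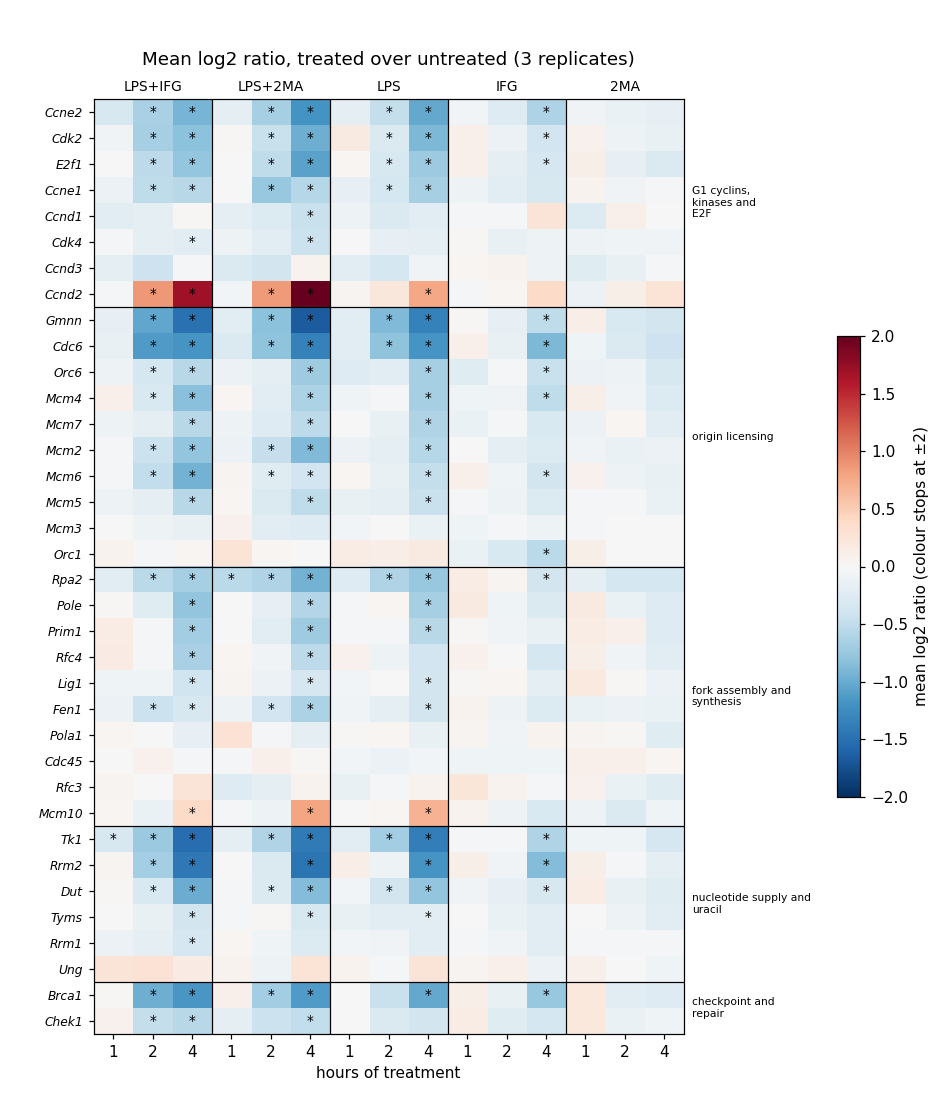
Mean log2 ratio of treated over untreated RNA for the 36 measured members (vertical, grouped by role) in 5 treatments at 1, 2 and 4 h (horizontal), with a star where limma's adjusted p was under 0.05. Blue cells fill the 4 h columns of LPS+IFG, LPS+2MA and LPS, paler ones that of IFG, and Ccnd2 and Mcm10 stand out in red; Ccnd2 with LPS+2MA, at 2.56, lies beyond the end of the colour scale.

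The response grew with time. At 1 h, 1 member was lower with LPS+IFG (Tk1, thymidine kinase, at -0.32 ± 0.12) and 1 with LPS+2MA (Rpa2, a subunit of the single-strand binding protein RPA, at -0.55 ± 0.10), with 2.99% and 1.88% of all features lower. The Tk1 call was lost without replicate 1 and without replicate 2 of LPS+IFG, and 2 members were called without replicate 3. With LPS, IFG and 2MA at 1 h, limma called 0 members lower, with 2.23%, 0.107% and 0.544% of all features lower. At an unadjusted p under 0.05, 3 members were lower with LPS, 1 with IFG and 1 with 2MA. Of all 12143 features the same threshold gave 859, 244 and 709 lower. Over the alternatives the number of members called lower was 0 to 2 with LPS, 0 in all with IFG and 0 to 1 with 2MA. No member was called higher at 1 h in any treatment, where 4.37% of all features were higher with LPS+IFG, 3.27% with LPS+2MA, 2.92% with LPS, 0.98% with IFG and 0.749% with 2MA. At an unadjusted p under 0.05 limma gave 2 members higher with LPS+2MA, 1 with 2MA and 0 in the other treatments. Of all 12143 features it gave 776 higher with LPS+2MA, 569 with 2MA, 1028 with LPS+IFG, 768 with LPS and 378 with IFG.

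At 2 h, 17 members were lower with LPS+IFG and 1 higher, against 10.1% and 9.43% of all features. With LPS+2MA 13 were lower and 1 higher, against 8.35% and 8.05%. With LPS 9 were lower and 0 higher, against 7.44% and 7.3%. At an unadjusted p under 0.05, 14 were lower and 0 higher, against 1623 and 1357 of all 12143 features. The 9 lower with LPS were Gmnn (-0.88 ± 0.40), Cdc6 (-0.81 ± 0.08), Tk1 (-0.69 ± 0.09), Rpa2 (-0.60 ± 0.06), Ccne2 (-0.48 ± 0.17), Dut (-0.37 ± 0.31), Ccne1 (-0.35 ± 0.37), E2f1 (-0.32 ± 0.18) and Cdk2 (-0.29 ± 0.14). All 9 were also lower with each combination at 2 h. Past 2-fold at this time were Cdc6 with LPS+IFG at -1.18, -0.98 and -1.22 and Gmnn with LPS+IFG at -1.31, -0.82 and -0.99, where 0.7% of all features fell as far. The higher member at 2 h was Ccnd2, cyclin D2, at 0.87 ± 0.57 with LPS+IFG and 0.85 ± 0.70 with LPS+2MA. In a fit on the replicates of the condition alone the numbers lower were 11, 8 and 5 with LPS+IFG, LPS+2MA and LPS. From the arrays with Cy3-labelled treated RNA alone, 8 were lower with LPS+2MA. With IFG and with 2MA at 2 h limma called 0 members in either direction, with 0.552% and 0.206% of all features lower and 2.62% and 0.972% higher. At an unadjusted p under 0.05, 3 members were lower with IFG and 4 with 2MA, with 0 higher in both. Of all 12143 features 413 and 400 were lower and 681 and 515 higher at that threshold. Over the alternatives 0 to 6 and 0 to 5 members were called lower.

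**Figure D2:**
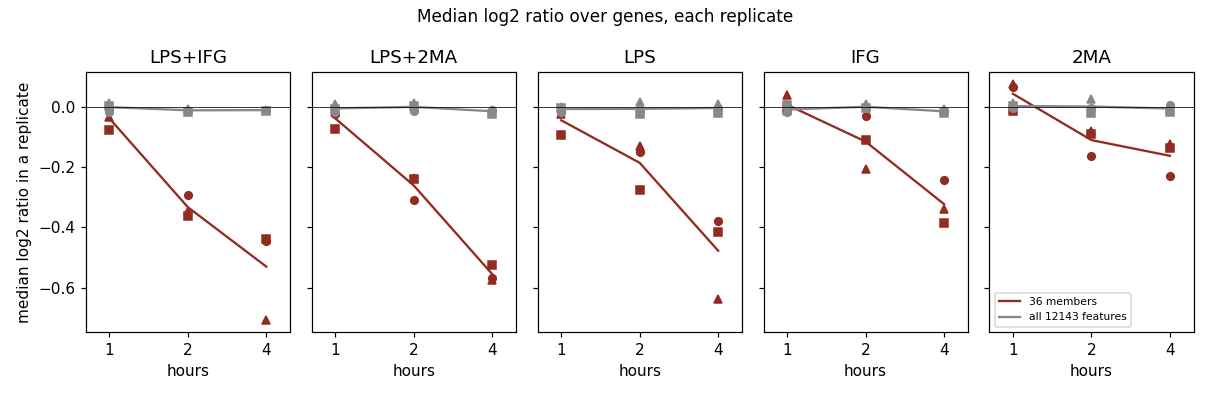
Median log2 ratio over the 36 members (red) and over all 12143 features (grey) in each replicate (circle, square and triangle for replicates 1, 2 and 3) against hours of treatment, with lines through the mean of the 3 replicates. At 4 h the members' medians were -0.44, -0.44 and -0.71 with LPS+IFG, -0.57, -0.52 and -0.57 with LPS+2MA, -0.38, -0.42 and -0.64 with LPS, -0.24, -0.39 and -0.34 with IFG and -0.23, -0.14 and -0.12 with 2MA, while the grey points stay near 0.

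Among the G1 cyclins, their kinases and E2F (8 measured members), 5 were lower with LPS+IFG, 6 with LPS+2MA, 4 with LPS and 3 with IFG at 4 h, and Ccnd2 was higher in each treatment that held LPS. The counts of this and the following groups stand against 17.7%, 17.4%, 14.8% and 5.49% of all features lower with LPS+IFG, LPS+2MA, LPS and IFG, and 1 higher member of 8 is near the 14.5%, 14.2% and 12.1% of all features higher with the treatments that held LPS. Ccne2, cyclin E2, which activates CDK2 at the G1/S border, had ratios of -0.68, -0.95 and -1.15 with LPS+IFG. It had -1.22, -1.19 and -1.19 with LPS+2MA. With LPS the replicates gave -1.04, -0.90 and -1.13, against -0.76, -0.76 and -0.34 with IFG. Every replicate of these 4 treatments lay below 0. Those of LPS and IFG did not overlap, but the difference between LPS and IFG did not pass the adjusted test. The means were -0.93 ± 0.24 (adjusted p = 4.06e-09), -1.20 ± 0.02 (8.96e-12), -1.02 ± 0.12 (6.38e-10) and -0.62 ± 0.24 (4.08e-05). When exact zeros were kept as measured values the means were closer to 0, at -0.46, -0.60, -0.51 and -0.31 in the same order, short of 2-fold and past the test in all 4. That setting also averaged in the probe of Ccne2 that the main fit left out. These means therefore do not show how the kept probe alone would change. The IFG call was lost on arrays with treated RNA in Cy3 alone (-0.23, adjusted p = 0.233). Another probe of Ccne2 was too often missing to be used, as was 1 of the 2 probes each of Ccnd3, Cdk2 and Chek1.

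E2f1, the transcription factor that activates many S phase genes, had ratios of -0.72, -0.61 and -0.97 with LPS+IFG, -1.28, -0.97 and -0.95 with LPS+2MA and -0.84, -0.67 and -0.67 with LPS. All 9 lay below 0. Those of LPS+2MA lay lower than those of LPS without overlap, but this difference did not pass the adjusted test. The means were -0.77 ± 0.19 (adjusted p = 9.15e-10), -1.07 ± 0.18 (2.42e-13) and -0.73 ± 0.10 (5.10e-09). With IFG E2f1 was at -0.34 ± 0.08 (adjusted p = 0.00311), a call that was lost without IFG replicate 3 (-0.31, adjusted p = 0.0549). Cdk2, the kinase partner of cyclin E, was lower at -0.82 ± 0.12, -0.98 ± 0.20 and -0.89 ± 0.13 with LPS+IFG, LPS+2MA and LPS and at -0.38 ± 0.07 with IFG. With exact zeros kept, Cdk2 was at -0.32, -0.49 and -0.56 in the treatments that held LPS, still past the test, and at -0.07 with IFG (adjusted p = 0.798), which ended that call. Here too the probe left out of the main fit was averaged in. Ccne1, cyclin E1, was lower with LPS+IFG (-0.56 ± 0.08), LPS+2MA (-0.56 ± 0.11) and LPS (-0.67 ± 0.28), but its 2 probes differed, with -1.12 (adjusted p = 1.25e-08) and -0.22 (0.378) under LPS. Cdk4, the kinase of the D-type cyclins, was lower with LPS+IFG (-0.23 ± 0.07) and LPS+2MA (-0.43 ± 0.18) and did not pass with LPS (-0.18 ± 0.13).

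The D-type cyclins, which link growth signals to the cycle, split. Ccnd2 had ratios of 2.19, 1.84 and 1.08 with LPS+IFG. It had 3.10, 3.09 and 1.49 with LPS+2MA and 1.14, 0.85 and 0.33 with LPS. Replicate 3 was the lowest of its group each time, all 9 ratios lay above 0, and LPS+2MA did not overlap LPS. The means were 1.70 ± 0.57 (adjusted p = 5.32e-08), 2.56 ± 0.93 (4.26e-12) and 0.77 ± 0.41 (0.00627), so that the level with LPS+2MA was 5.90 times that of untreated cells. Its 2 probes moved by different amounts in the same direction, with 2.34 and 1.06 under LPS+IFG, 3.14 and 1.98 under LPS+2MA, and 1.07 and 0.48 under LPS. The call with LPS was lost without LPS replicate 1 (0.59, adjusted p = 0.137). With IFG Ccnd2 was at 0.38 ± 0.31 and with 2MA at 0.27 ± 0.22, neither past the test. Ccnd1, cyclin D1, passed with LPS+2MA only (-0.45 ± 0.22, adjusted p = 0.00323), where its probes gave -0.64 and -0.03. Ccnd3, cyclin D3, was between -0.10 and 0.07 at 4 h and passed in no condition.

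**Figure D3:**
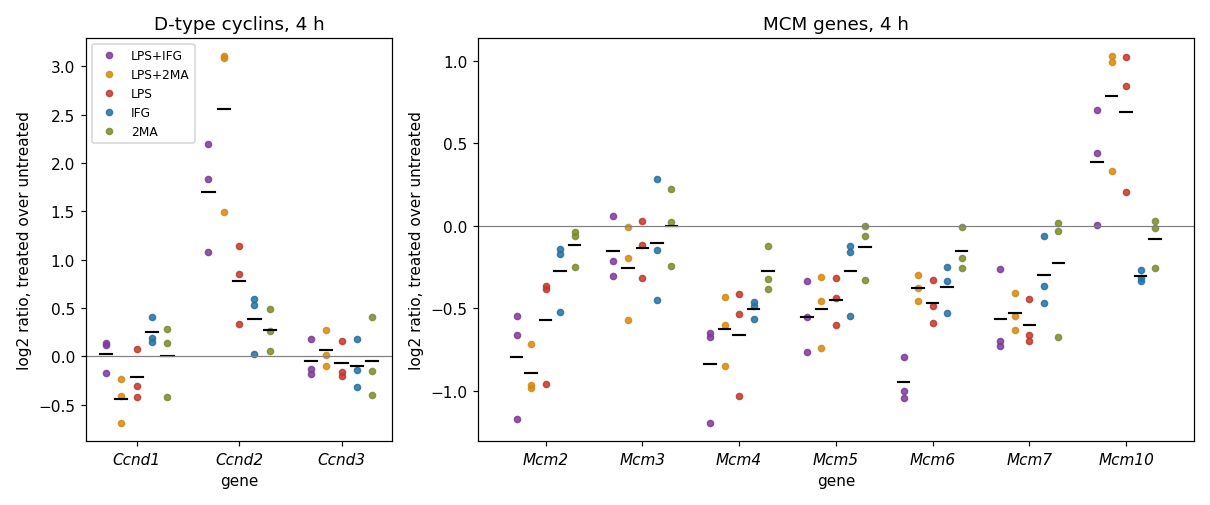
Log2 ratio of treated over untreated RNA at 4 h in each replicate (points) with the mean (bar) for the D-type cyclins (left) and for the MCM genes (right), coloured by treatment. Ccnd2 lies above 0 in all replicates of LPS+IFG, LPS+2MA and LPS while Ccnd3 scatters around 0; among the MCM genes, Mcm2 to Mcm7 lie mostly below 0 and Mcm10 lies above it in the treatments that held LPS.

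Of 10 measured genes of origin licensing, 8 were lower at 4 h with each of LPS+IFG, LPS+2MA and LPS, and 6 with IFG; none was higher in any of them. Gmnn, geminin, the inhibitor of CDT1, had ratios of -1.67, -1.02 and -1.80 with LPS+IFG, -1.58, -1.41 and -1.98 with LPS+2MA and -1.31, -1.25 and -1.48 with LPS. With IFG it had -0.46, -0.46 and -0.60, above every replicate of the other 3 treatments. The means were -1.50 ± 0.42 (adjusted p = 4.31e-11), -1.66 ± 0.29 (3.50e-12), -1.35 ± 0.12 (8.10e-10) and -0.51 ± 0.08 (0.0116). Leaving out any of the 3 IFG replicates ended the IFG call, with adjusted p = 0.0538, 0.0516 and 0.115 without replicates 1, 2 and 3, as did using arrays with treated RNA in Cy3 alone (-0.35, 0.175). Cdc6, the loader of the MCM helicase, had ratios of -0.98, -0.75 and -1.79 with LPS+IFG, -1.19, -1.14 and -1.73 with LPS+2MA, -1.13, -0.87 and -1.55 with LPS and -0.91, -0.80 and -0.98 with IFG. Replicate 3 was the lowest in all 4 groups, and the IFG replicates lay within the range of LPS+IFG. Its means were -1.18 ± 0.54, -1.35 ± 0.33, -1.18 ± 0.34 and -0.90 ± 0.09 (adjusted p between 3.47e-11 and 1.35e-06), and with 2MA it was at -0.42 ± 0.16 (0.0871).

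The subunits of the MCM helicase, which unwinds DNA at the fork, had mean ratios short of 2-fold in every treatment. Mcm2 was lower with LPS+IFG (-0.79 ± 0.33), LPS+2MA (-0.89 ± 0.15) and LPS (-0.57 ± 0.34), Mcm4 with LPS+IFG (-0.84 ± 0.31), LPS+2MA (-0.63 ± 0.21), LPS (-0.66 ± 0.33) and IFG (-0.50 ± 0.05). Mcm6 was at -0.95 ± 0.13, -0.38 ± 0.08, -0.47 ± 0.13 and -0.37 ± 0.14 in the same 4 treatments and passed in all of them. Mcm5 (-0.55 ± 0.22, -0.50 ± 0.22 and -0.45 ± 0.14) and Mcm7 (-0.56 ± 0.26, -0.53 ± 0.11 and -0.60 ± 0.14) passed with LPS+IFG, LPS+2MA and LPS and not with IFG. Mcm3 passed in none of the 15 conditions, with 4 h means between -0.26 and 0.00. Its probes disagreed in direction, with -0.59 (adjusted p = 0.000261) and 0.08 (0.845) under LPS+2MA. In the origin recognition complex, Orc6 was lower with LPS+IFG (-0.55 ± 0.33), LPS+2MA (-0.71 ± 0.14), LPS (-0.67 ± 0.20) and IFG (-0.45 ± 0.23). Orc1 was lower with IFG alone, at -0.40, -0.57 and -0.66 (mean -0.54 ± 0.13, adjusted p = 0.000213), against 0.37, 0.31 and -0.12 with LPS.

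Of 10 measured genes of fork assembly and DNA synthesis, 6 were lower and 1 higher at 4 h with LPS+IFG and with LPS+2MA, 5 were lower and 1 higher with LPS, and 1 was lower with IFG. The 1 of 10 higher is near the share of all features (14.5%, 14.2% and 12.1%), as is the 1 of 10 lower with IFG (5.49%). Rpa2 was the lowest of them with LPS+2MA (-0.95 ± 0.26) and LPS (-0.77 ± 0.31), and was at -0.67 ± 0.30 with LPS+IFG and -0.36 ± 0.05 with IFG, past the test in all 4. Pole, the catalytic subunit of the leading-strand polymerase epsilon, was lower with LPS+IFG (-0.80 ± 0.32), LPS+2MA (-0.59 ± 0.13) and LPS (-0.67 ± 0.30). Prim1, a subunit of primase, which lays RNA primers, was lower in the same 3 (-0.70 ± 0.38, -0.70 ± 0.18 and -0.56 ± 0.13). Lig1, DNA ligase I, and Fen1, the flap nuclease, which join and trim Okazaki fragments, were lower in these 3 as well, with Lig1 at -0.40 ± 0.12, -0.33 ± 0.10 and -0.37 ± 0.03 and Fen1 at -0.31 ± 0.21, -0.63 ± 0.10 and -0.36 ± 0.15. Rfc4, a subunit of the clamp loader, passed with LPS+IFG (-0.64 ± 0.34) and LPS+2MA (-0.52 ± 0.19) and not with LPS (-0.38 ± 0.30). Pola1, the polymerase alpha catalytic subunit (4 h means -0.24 to 0.07), Cdc45, a helicase cofactor (-0.09 to 0.04), and Rfc3, another clamp loader subunit (-0.24 to 0.25), passed in no condition. For Pcna, left out of the fit, single arrays at 4 h read between 0.13 and 0.16 with LPS+IFG (3 measured), -0.60 and -0.31 with LPS+2MA (4), -0.60 and -0.15 with LPS (5) and -0.18 and 0.02 with IFG (4).

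Mcm10, a replication initiation factor that helps CDC45 and polymerase alpha onto DNA, was the exception in this group. Its ratios were 0.70, 0.44 and 0.01 with LPS+IFG, 0.99, 1.03 and 0.33 with LPS+2MA and 0.84, 1.02 and 0.20 with LPS. Replicate 3 was the lowest each time, and all 9 lay above 0. With IFG they were -0.32, -0.33 and -0.27, below 0 and below every LPS replicate. The means were 0.38 ± 0.35 (adjusted p = 0.0102), 0.78 ± 0.39 (1.35e-06), 0.69 ± 0.43 (1.59e-05) and -0.31 ± 0.03 (0.10). Both probes of Mcm10 were higher with LPS (0.96 and 0.42) and LPS+2MA (1.02 and 0.55), while with LPS+IFG 1 of 2 passed (0.57 and 0.20). The LPS+IFG call was lost without replicate 1 (0.23, adjusted p = 0.302) and without replicate 2 (0.36, 0.0694). It was also lost with the spread of arrays made equal (0.29, 0.0512) and on arrays with treated RNA in Cy3 alone (0.27, 0.154). In a fit on the LPS+IFG replicates alone it was lost as well (adjusted p = 0.0568).

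Of 6 measured genes of nucleotide supply and uracil removal, 5 were lower at 4 h with LPS+IFG, 4 with LPS+2MA, 4 with LPS and 3 with IFG. Tk1, which salvages thymidine, had ratios of -1.48, -1.69 and -1.42 with LPS+IFG, -1.27, -1.65 and -1.32 with LPS+2MA and -1.42, -1.60 and -1.12 with LPS. Replicate 2 was the lowest of each group. With IFG it had -0.47, -0.80 and -0.51, which did not overlap the other 3. The means were -1.53 ± 0.14 (adjusted p = 6.35e-16), -1.41 ± 0.20 (5.96e-15), -1.38 ± 0.24 (1.58e-14) and -0.59 ± 0.18 (1.32e-05), so that Tk1 stood at 0.346, 0.376, 0.384 and 0.662 of its untreated level. Rrm2, the regulated subunit of ribonucleotide reductase, had ratios of -1.48, -1.28 and -1.55 with LPS+IFG, -1.73, -1.68 and -0.96 with LPS+2MA, -1.34, -1.26 and -0.95 with LPS and -1.05, -0.91 and -0.63 with IFG. All 12 were below 0, and the ranges of LPS and IFG overlapped. Its means were -1.44 ± 0.14, -1.46 ± 0.43, -1.18 ± 0.20 and -0.86 ± 0.21, with adjusted p between 8.51e-14 and 1.36e-07. Rrm1, the large subunit of the same enzyme, passed with LPS+IFG alone (-0.34 ± 0.35) and was at -0.28 ± 0.23 with LPS+2MA and -0.22 ± 0.21 with LPS.

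Dut, the dUTPase that keeps uracil out of DNA, was lower with LPS+IFG (-0.99 ± 0.20), LPS+2MA (-0.86 ± 0.16), LPS (-0.79 ± 0.11) and IFG (-0.32 ± 0.10). The IFG call of Dut was lost without replicate 2 (-0.28, adjusted p = 0.137) and without replicate 3 (-0.31, 0.102), and with treated RNA in Cy3 alone (-0.18, 0.293). Tyms, thymidylate synthase, was lower with LPS+IFG (-0.36 ± 0.08), LPS+2MA (-0.32 ± 0.01) and LPS (-0.23 ± 0.06); with LPS 1 of its 2 probes passed (-0.43 and -0.02). Ung, the glycosylase that cuts out uracil, passed in no condition, with 4 h means between -0.11 and 0.28.

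Of the checkpoint and repair genes, both were lower at 4 h with LPS+IFG and LPS+2MA, and Brca1 was with LPS and IFG. Brca1, which acts in homologous recombination and fork protection, had ratios of -0.79, -0.80 and -1.91 with LPS+IFG, -0.99, -0.76 and -1.65 with LPS+2MA, -0.86, -0.61 and -1.59 with LPS and -0.80, -0.62 and -0.85 with IFG. Replicate 3 was the lowest in each, by the widest margin in the treatments that held LPS. The means were -1.17 ± 0.64 (adjusted p = 2.57e-07), -1.13 ± 0.46 (5.20e-07), -1.02 ± 0.51 (4.49e-06) and -0.76 ± 0.12 (0.000952). Chek1, the kinase that answers stalled forks, was lower with LPS+IFG (-0.55 ± 0.32) and LPS+2MA (-0.50 ± 0.09) and did not pass with LPS (-0.37 ± 0.49).

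**Figure D4:**
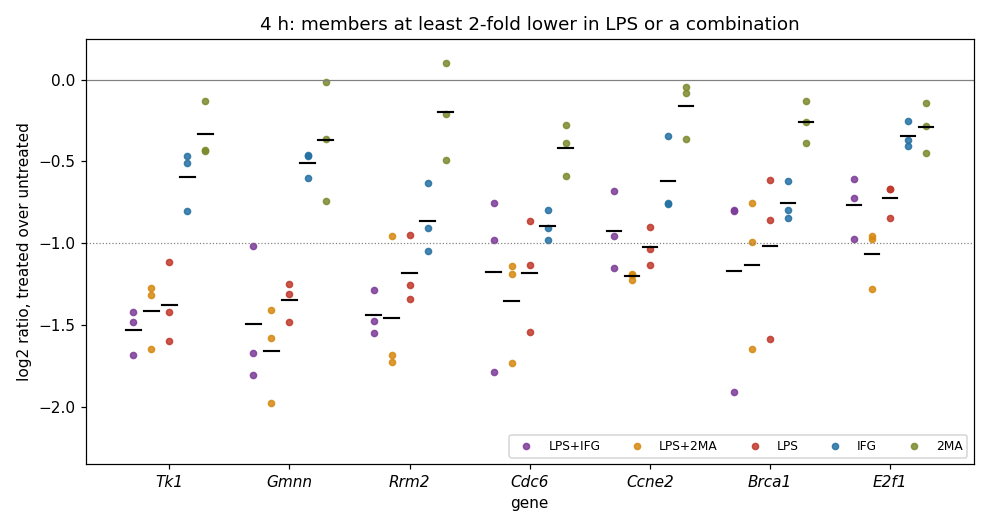
Log2 ratio of treated over untreated RNA at 4 h in each replicate (points) with the mean (bar), coloured by treatment, for the 7 members at least 2-fold lower with LPS or a combination; the dotted line marks 2-fold lower and the solid line no difference. Tk1 and Gmnn with IFG (-0.47 to -0.80 and -0.46 to -0.60) lie clear of the 3 treatments that held LPS, while for Cdc6 and Brca1 the treatments overlap.

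Past both the test and 2-fold at 4 h were 5 members lower with LPS+IFG (Tk1, Gmnn, Rrm2, Brca1 and Cdc6), 7 lower with LPS+2MA (those 5 with Ccne2 and E2f1) and 6 lower with LPS (the 5 with Ccne2). Among all features 2.08%, 1.84% and 1.12% fell as far. Ccnd2 was past both in the other direction with LPS+IFG and LPS+2MA, where 4.48% and 4.59% of all features rose as far. With IFG, 0 members passed both, against 0.165% of all features lower.

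The difference between 4 h and 1 h of a treatment was tested in the same fit. It was lower at 4 h for 20 members with LPS+IFG, 20 with LPS+2MA, 16 with LPS and 8 with IFG, where 9.07%, 8.91%, 6.66% and 1.64% of all features were lower at 4 h. It was higher for Ccnd2 with LPS+IFG (1.73) and LPS+2MA (2.62) and for Mcm10 with LPS+2MA (0.81) and LPS (0.70). With LPS+IFG, LPS+2MA and LPS, 8.52%, 8.31% and 6.73% of all features were higher. With IFG limma called 0 members higher, against 2.64%. At an unadjusted p under 0.05 it gave 0 as well, against 796 of all 12143 features. Rrm2 had the most negative difference with each treatment that held LPS, -1.49 (SE 0.15) with LPS+IFG, -1.45 with LPS+2MA and -1.32 with LPS. With IFG the largest falls were of Cdc6 and Rrm2 (both -0.99), followed by Brca1 (-0.87). Past 2-fold as well were 6 members lower with LPS+IFG, 7 with LPS+2MA and 5 with LPS, where 1.66%, 1.5% and 0.865% of all features fell as far, and Ccnd2 higher with LPS+IFG and LPS+2MA, where 3.05% and 3.49% rose as far. With 2MA limma called 0 members in either direction, against 0.173% and 0.148% of all features lower and higher. At an unadjusted p under 0.05, 9 members were lower and 0 higher, against 449 and 488 of all 12143 features. The number of members called lower was 0 under each alternative run. The number higher was not recomputed.

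These time differences moved with single libraries. With LPS 10 were lower without 4 h replicate 3, with LPS+IFG 13 without 4 h replicate 3 and with LPS+2MA 12 without 1 h replicate 3. With IFG 5 were lower without 1 h replicate 1, 1 h replicate 2 or 4 h replicate 1, and 3 without 1 h replicate 3 or 4 h replicate 2. The LPS number was also 10 with the spread of arrays made equal and for each dye orientation alone. That of LPS+IFG was 13 with equal spread, that of LPS+2MA 13 on arrays with treated RNA in Cy3, and that of IFG 4 for each orientation alone.

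At 4 h, LPS and IFG, where lipid binding protein also differs by the labels, differed for 7 members. The LPS minus IFG difference was below 0 for Gmnn (-0.84, SE 0.20, adjusted p = 0.00372), Tk1 (-0.79, SE 0.13, 5.81e-05), Cdk2 (-0.51, SE 0.13, 0.00593), Dut (-0.47, SE 0.13, 0.0139) and E2f1 (-0.38, SE 0.12, 0.0294). It was above 0 for Mcm10 (1.00, SE 0.17, 4.73e-05) and Orc1 (0.73, SE 0.15, 0.00061). That makes 5 lower and 2 higher, against 4.29% and 5.05% of all features. In each of these 7 genes the replicates of the LPS and IFG groups did not overlap. The genes were picked by the test on the same replicates, so this adds no support. No difference was called for Cdc6, for which the 95% interval of LPS minus IFG includes 0. The number was 4 on arrays with treated RNA in Cy3 and in a fit on the LPS and IFG replicates alone, and 3 with the spread of arrays made equal.

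**Figure D5:**
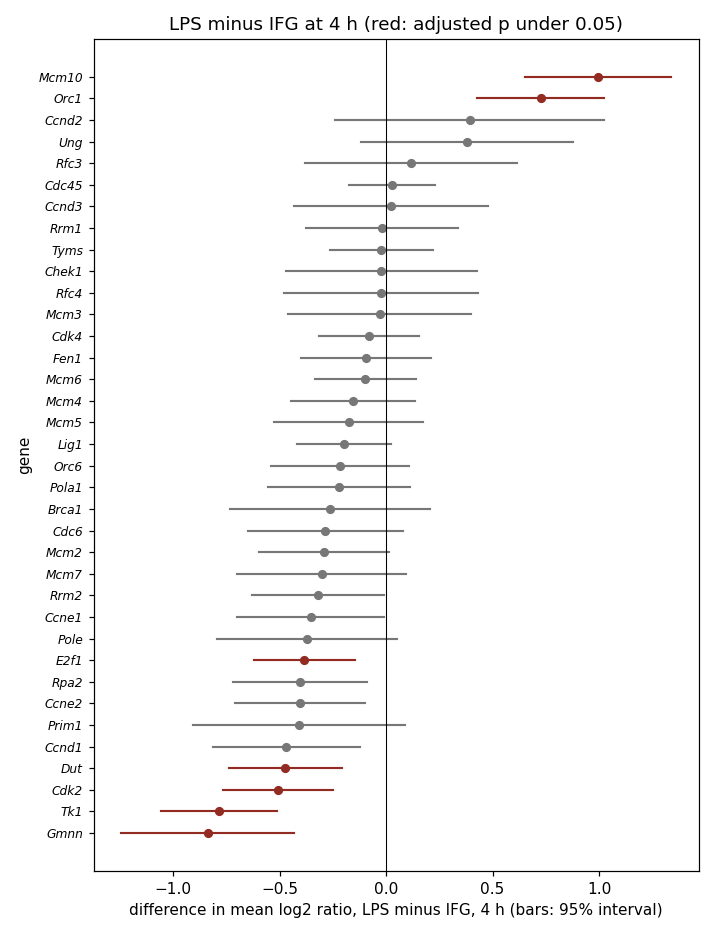
Difference in mean log2 ratio, LPS minus IFG at 4 h, for each of the 36 members (points) with its 95% interval (bars), ordered by size; red marks an adjusted p under 0.05. Mcm10 (1.00) and Orc1 (0.73) stand at the upper end and Gmnn (-0.84) and Tk1 (-0.79) at the lower end, and most intervals include 0.

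The combinations were set against their single treatments at 4 h. LPS+IFG minus IFG was lower for 8 members and higher for 3, against 4.73% and 5.57% of all features. Gmnn (-0.99, SE 0.20), Tk1 (-0.94, SE 0.13), Dut (-0.67), Mcm6 (-0.58), Rrm2 (-0.57), Mcm2 (-0.52), Cdk2 (-0.44) and E2f1 (-0.43) were lower, and Ccnd2 (1.32, SE 0.31, past 2-fold like 2.04% of all features), Mcm10 (0.69) and Orc1 (0.58) were higher. Without LPS+IFG replicate 1, 7 members were called, and Ccnd2 was at 1.08 (adjusted p = 0.0506). The number was 5 with equal spread and in a fit on the compared conditions alone.

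LPS+IFG minus LPS, where lipid binding protein also differs by the labels, was called for Mcm6 alone (-0.48, SE 0.12, adjusted p = 0.0105), with 1.28% of all features lower and 2.37% higher. Mcm6 had ratios of -0.80, -0.9999 and -1.04 with LPS+IFG, against -0.33, -0.49 and -0.59 with LPS, which did not overlap. No member was called without LPS replicate 1, with equal spread, on arrays with treated RNA in Cy3, or in a fit on the compared conditions alone, and 2 were with the set number as a replicate block. For Tk1 the difference was -0.15 with a 95% interval of -0.42 to 0.12, and for Ccnd2 it was 0.93 with an interval of 0.30 to 1.56 that did not pass the adjusted test.

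LPS+2MA minus LPS, with the same difference in lipid binding protein, was called for Ccnd2 alone (1.79, SE 0.31, adjusted p = 0.00391), with 0.0576% of all features lower and 0.247% higher, or 0.124% higher by 2-fold. The call was lost without LPS+2MA replicate 1 (1.52, adjusted p = 0.0540) and in a fit on the compared conditions alone (adjusted p = 0.388). Among the members that fell with LPS, Tk1 differed by -0.03 (95% interval -0.31 to 0.24), Gmnn by -0.31 (-0.72 to 0.09) and E2f1 by -0.34 (-0.58 to -0.11), none past the adjusted test.

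Of 56 other genes of G1/S control and S phase in the fit, 31 were lower and 6 higher with LPS+IFG at 4 h, 32 and 6 with LPS+2MA, 32 and 6 with LPS, 19 and 3 with IFG and 1 and 1 with 2MA. Of all features 17.7%, 17.4%, 14.8%, 5.49% and 0.544% were lower and 14.5%, 14.2%, 12.1%, 6.12% and 1.25% higher, so that the numbers higher, and both numbers with 2MA, are near or under what all features gave. Their medians were -0.43, -0.38, -0.33, -0.25 and -0.11. Ccna2, cyclin A2, which drives S phase with CDK2, was at -1.45 ± 0.42 with LPS+IFG, -1.25 ± 0.33 with LPS+2MA, -1.18 ± 0.19 with LPS and -0.36 ± 0.16 with IFG. Exo1, an exonuclease of mismatch repair, was lower as well, at -1.40 ± 0.57, -1.01 ± 0.40, -0.87 ± 0.34 and -0.66 ± 0.36. Also lower were Cdkn2c, an inhibitor of CDK4 and CDK6, at -1.35 ± 0.20, -1.48 ± 0.38, -1.32 ± 0.28 and -0.48 ± 0.26, and Rbl2, a relative of the retinoblastoma protein, at -1.47 ± 0.17, -0.996 ± 0.21, -1.02 ± 0.23 and -0.81 ± 0.20. Higher were Dck, deoxycytidine kinase of the nucleotide salvage pathway, at 1.62 ± 0.70, 0.96 ± 0.41, 1.01 ± 0.44 and 0.72 ± 0.43, and Myc, a transcription factor that promotes growth and cycle entry. Myc was at 3.77 ± 0.43 with LPS+IFG, 4.21 ± 0.35 with LPS+2MA, 3.95 ± 0.40 with LPS and 1.39 ± 0.72 with 2MA, and with IFG at -0.26 ± 0.16, not past the test.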

How the data were processed

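The deposited values are log2 ratios between the channels of an array, as the values themselves show: they run to both sides of 0, every array has a median of 0, and 14 values lie exactly at the limit of a 100-fold ratio (6.64). For image reading, background and normalisation by the authors, the sources used here give no account. Per the labels, each set holds 2 arrays with the dyes exchanged. Exact zeros (7.84 to 17.0% of an array's values) were taken as missing, since 753 of 16281 probes were 0 on all arrays. Before signs were turned, 37 of 45 dye-swapped pairs correlated below 0 across probes (-0.771 to 0.381).

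Of 13790 annotated probes, 13738 named 1 gene and 52 several; probes of several genes and the 2491 probes not listed stayed unnamed. Signs were turned where treated RNA was in Cy3, and the arrays of a set were averaged, or the measured one taken. A probe was kept if each condition had it measured in 2 or more of its 3 replicates (14548 probes), and probes were averaged per gene, which left 0.211% of replicate values missing. Where 1 replicate was missing, limma fitted the others. R 4.3.3 with limma 3.58.1 fitted 1 mean per condition to all 45 replicates (lmFit and eBayes, at most 30 residual degrees of freedom, prior of 5.72 with SD 0.187; median residual SD 0.203). Tests were 2-sided, with 24 comparisons each adjusted by Benjamini and Hochberg over 12143 features; the script was tested on simulated data. The number of arrays limits the precision. Promoters were read and plots drawn with matplotlib 3.10.9, numpy 2.4.6 and pandas 2.3.3 in Python 3.11.15.

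The members, lists and tests were chosen with earlier results of these data known, so no test of the list as a whole was made. Every measured member was to be named, with each replicate given at 4 h for those past the test and 2-fold against untreated; from the other lists at most 6 genes past both at 4 h were named, by size. Same-numbered sets had deviations from the condition means that correlated above 0.1 in all 3 sets for each pair of treatments compared at 4 h (lowest 0.251), so the sets pair there, whereas 7 of 15 did between 4 h and 1 h. Alternatives kept zeros, required both arrays, equalised the spread of arrays, used each dye orientation alone, fitted the compared conditions only, used the set as a block, left out each replicate and tested each probe.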

Additional observations from a re-analysis of the deposited data

Results flagged for a closer look

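The following ratios differed between 4 h and 1 h of the same treatment by limma's test of the difference itself, with an adjusted p under 0.05 and a difference of at least 2-fold; values are 4 h minus 1 h on the log2 scale. With LPS+IFG they were Rrm2 (-1.49, SE 0.15, adjusted p = 2.16e-09), Gmnn (-1.33), Tk1 (-1.20), Brca1 (-1.19), Cdc6 (-1.03) and Dut (-1.01), and in the other direction Ccnd2 (1.73, SE 0.31, adjusted p = 5.61e-05). With LPS+2MA they were Rrm2 (-1.45, SE 0.15, adjusted p = 2.41e-09), Gmnn (-1.43), Tk1 (-1.23), Brca1 (-1.23), E2f1 (-1.08), Cdc6 (-1.06) and Ccne2 (-1.001), with Ccnd2 at 2.62 (SE 0.31, adjusted p = 3.00e-08). With LPS they were Rrm2 (-1.32, SE 0.15, adjusted p = 2.62e-08), Tk1 (-1.17), Gmnn (-1.13), Cdk2 (-1.07) and Brca1 (-1.02). With IFG and 2MA no member reached both limits. Groups of 3 replicates are too small for a test of single outlying samples, so none was made.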

How the results depend on the processing

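Of 267 counts of members recomputed under alternatives, 52 moved by more than 1.5 times. Of the named genes' results, 862 kept their status, which includes those not called in either fit, 25 lost a call and 8 gained one. Of the results called in the main fit, 0 changed sign. The causes were not tested. The counts lower at 4 h with LPS+IFG (20 to 26), LPS+2MA (21 to 27) and LPS (17 to 23) stayed within that limit. With the spread of arrays made equal, the number lower was 1 with IFG at 2 h, 1 with 2MA at 4 h, 10 for LPS 4 h minus 1 h and 13 for LPS+IFG 4 h minus 1 h, and the number changed was 3 for LPS minus IFG, 0 for LPS+IFG minus LPS and 5 for LPS+IFG minus IFG. On arrays with treated RNA in Cy5 alone, the numbers lower were 5 with LPS+IFG at 1 h, 3 with LPS+2MA at 1 h, 2 with LPS at 1 h, 6 with IFG at 2 h, 1, 5 and 6 with 2MA at 1, 2 and 4 h, 10 for LPS 4 h minus 1 h and 4 for IFG 4 h minus 1 h. With treated RNA in Cy3 alone they were 0 with LPS+IFG at 1 h, 8 with LPS+2MA at 2 h, 1 with LPS at 1 h, 2 and 2 with 2MA at 2 and 4 h, 13 for LPS+2MA 4 h minus 1 h, 10 for LPS 4 h minus 1 h and 4 for IFG 4 h minus 1 h, with 4 changed for LPS minus IFG and 0 for LPS+IFG minus LPS. In fits on the compared conditions only, which have fewer samples, they were 0 with LPS+IFG at 1 h, 11 with LPS+IFG, 8 with LPS+2MA and 5 with LPS at 2 h and 8 with IFG at 4 h, with 4, 0, 5 and 0 changed for LPS minus IFG, LPS+IFG minus LPS, LPS+IFG minus IFG and LPS+2MA minus LPS. Leaving out a replicate gave 0 to 1 lower with 2MA at 4 h, 0 to 2 with LPS+IFG at 1 h, 13 to 18 for LPS+IFG 4 h minus 1 h, 12 to 18 for LPS+2MA, 10 to 15 for LPS and 3 to 6 for IFG, and 0 to 1, 7 to 11 and 0 to 1 changed for LPS+IFG minus LPS, LPS+IFG minus IFG and LPS+2MA minus LPS.

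With the set number as a replicate block, 1 member was lower with 2MA at 4 h and 2 were changed for LPS+IFG minus LPS; no other count moved by more than 1.5 times. The consensus correlation within sets was 0.388. Over all probes of a gene, exact zeros took 49.4% of the array values for Ccne2 and 47.8% for Pcna. They took 41.1% for Chek1, 38.3% for Ccnd3 and 32.8% for Cdk2. For Ccne2, Chek1, Ccnd3 and Cdk2 this includes the probe left out of the fit, so the share does not describe the values used. Signal over background is not known from ratios, and 3 replicates a condition limit all tests.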

Other observations

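Genes of G2 and mitosis, a list of 31 genes in the fit, were lower as well. At 4 h 28 of them were lower and 1 higher with LPS+IFG (median -0.86), 27 and 1 with LPS+2MA (-0.61), 26 and 1 with LPS (-0.60) and 19 and 0 with IFG (-0.48), against 17.7%, 17.4%, 14.8% and 5.49% of all features lower. Of all features 14.5%, 14.2%, 12.1% and 6.12% were higher in the same treatments. With 2MA limma called 0 in either direction, against 0.544% of all features lower and 1.25% higher. There 7 were lower and 0 higher at an unadjusted p under 0.05, against 650 and 609 of all 12143 features. The median of the list was -0.15. Kif20a, a kinesin of the spindle midzone, was at -1.55 ± 0.34 with LPS+IFG, -1.33 ± 0.50 with LPS+2MA, -1.03 ± 0.40 with LPS and -0.81 ± 0.25 with IFG (SD, n = 3 each, all past limma's test). Bub1b, a kinase of the spindle checkpoint, was at -1.26 ± 0.11, -0.30 ± 0.09, -0.62 ± 0.24 and -0.69 ± 0.17 in the same treatments. Cenpf, a centromere protein, was at -1.39 ± 0.35, -1.34 ± 0.30, -1.04 ± 0.24 and -0.51 ± 0.26. Cdc20, the activator of the anaphase-promoting complex, was at -1.35 ± 0.50, -0.98 ± 0.62, -0.92 ± 0.38 and -0.72 ± 0.31. Kif11, the motor that separates the spindle poles, was at -1.33 ± 0.30, -0.72 ± 0.17, -0.79 ± 0.25 and -0.62 ± 0.31. Nek2, a centrosome kinase, was at -1.24 ± 0.40, -0.90 ± 0.25, -0.65 ± 0.26 and -0.48 ± 0.30. Of the differences between treatments at 4 h, LPS+IFG minus IFG was lower for 12 of the 31 and higher for 1 (4.73% and 5.57% of all features), LPS minus IFG was lower for 4 and higher for 1 (4.29% and 5.05%), and LPS+IFG minus LPS was lower for 1 and higher for 0 (1.28% and 2.37%). For LPS+2MA minus LPS limma called 0 (0.0576% and 0.247% of all features). At an unadjusted p under 0.05, 1 was lower and 1 higher, against 266 and 388 of all 12143 features.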
